A study of Mus musculus with 24 samples.

Results

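Mature single-positive thymocytes were compared with DN3 thymocytes, the early CD4 and CD8 negative stage 3. The members were the arrays whose titles name wt SP4 (CD4 single-positive, n = 3, numbered 10 to 12), wt SP8 (CD8 single-positive, n = 3, numbered 13 to 15) and wt DN3 (n = 3, numbered 7 to 9), 9 of the 24 arrays of the series. SP4 and SP8 had equal weight in the SP mean. All 3 groups, called wild-type by their source label, carry the genotype Foxn1 heterozygous (+/-), and no group here has 2 intact Foxn1 copies by the labels. The cell type given for SP4 names both SP4 and SP8, so that group rests on the title. The series concerns components of the niche of blood cell progenitors, and its other arrays hold double-positive (DP) thymocytes and B cells. Cells were sorted by flow cytometry and lysed directly, and the polyadenylated RNA was amplified as cDNA by PCR before Cy3 labelling for 1-colour Agilent arrays. Nothing in the labels ties replicates to separate mice. A gene's p-value therefore reflects scatter among the arrays of a group, pooled in the main fit over all 24 arrays. Part of that scatter may be technical.

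In the thymus, DN3 cells rearrange the T cell receptor beta gene with the RAG recombinase and test it as a pre-TCR, a complex of the beta chain with the pre-TCR alpha chain and CD3. Cells that pass proceed to the DP stage, where the alpha gene is rearranged, and selection on self MHC then leaves CD4 or CD8 single-positive cells in which recombination has ended. Mature SP cells gain receptors for leaving the thymus under factors such as Klf2, while Notch signals, needed at the DN3 stage, wane.

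The probes below carry the comparisons that follow: both Rag1 probes, because they tell whether 1 probe or the gene differs; the probe of the T cell receptor alpha constant gene, Trac; both Cd8a probes, because they disagree; Gata3 and Msn, whose SP and DN3 arrays separated; and 2010016I18Rik, the gene with the smallest p. They are the array's 60-base probes as the spot files give them. By the mm9 annotation of those files they lie at chr2:101478813-101478872 and chr2:101481051-101481110 (Rag1, minus strand), within chr14:54841802-54842701 (Trac, plus strand, a span longer than the probe), at chr6:71328911-71328970 and chr6:71323885-71323944 (Cd8a, plus strand), chr2:9779551-9779610 (Gata3, minus strand), chrX:93363832-93363891 (Msn, plus strand) and chr3:106286081-106286140 (2010016I18Rik, minus strand). The files do not place these probes in exons or UTRs.
Rag1 brighter probe: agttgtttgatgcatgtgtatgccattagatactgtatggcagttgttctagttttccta
Rag1 other probe: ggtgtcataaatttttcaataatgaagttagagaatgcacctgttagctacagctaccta
Trac: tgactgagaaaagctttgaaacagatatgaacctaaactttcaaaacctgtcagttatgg
Cd8a brighter probe: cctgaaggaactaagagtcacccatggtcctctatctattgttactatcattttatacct
Cd8a other probe: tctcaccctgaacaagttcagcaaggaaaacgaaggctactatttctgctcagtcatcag
Gata3: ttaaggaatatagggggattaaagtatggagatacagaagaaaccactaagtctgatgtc
Msn: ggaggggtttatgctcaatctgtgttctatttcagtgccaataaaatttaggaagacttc
2010016I18Rik: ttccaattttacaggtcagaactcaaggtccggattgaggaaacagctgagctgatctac

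Levels below are log2 processed signals minus the array's 75th percentile, so 0 is that percentile and each unit is a doubling. Levels of different probes are not comparable. Differences are SP minus DN3 in log2 units, each ± its SE from limma, and a gene is represented by its brightest probe. The share of probes well above background was 87.6% to 96.7% on SP arrays and 92.4% to 95.1% on DN3 arrays, which differed by -1.72 percentage points in the mean (two-sided exact permutation test, p = 0.357, 84 regroupings). Pairwise correlations of arrays across genes ran between 0.903 and 0.914 within SP4, 0.922 and 0.955 within SP8, 0.931 and 0.955 within DN3, and 0.894 and 0.934 for SP4 with SP8. SP4 with DN3 arrays ran between 0.906 and 0.939, no lower than SP4 arrays among themselves, and SP8 with DN3 between 0.907 and 0.963. On the first principal component of the 9 arrays, with 20.3% of the variance, SP4 12 lay at 166 and SP8 15 at 127, and the other 7 between -77.3 and -29.7. DN3 7 lay on a slide of its own among these groups, and SP4 11 on another. The other 7 arrays shared 1 slide and 1 scan run. DN3 7 and SP4 11 were each scanned in a different run. DN3 8 stood apart on many, not all, Y-linked probes. In 52 of the 123 tested genes annotated to the Y chromosome it lay over 16-fold above the highest of the other 8, as for Ssty2, a gene of the Y long arm, at 3.18 on DN3 8 against at most -2.32 on the others. Another 33 lay above the 75th percentile on all 9 arrays. Some of these were level, such as Uba1y between 5.55 and 5.91. Others were also higher on DN3 8, such as Gm20877 at 4.84 against at most 1.43 on the other 8. Eif2s3y, a translation factor gene of the Y short arm, ran the other way, with -1.98 to -1.26 on SP arrays, against -2.22, -4.08 and 0.09 on DN3 7, 8 and 9. Whether the arrays mix mice of both sexes was not tested, and the labels give no sex.

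No gene passed an adjusted p of 0.05 between SP and DN3 thymocytes, nor between SP4 and DN3, SP8 and DN3, or in the difference of the SP4 and SP8 effects (limma with Benjamini-Hochberg adjustment, 0% called in each direction). At an unadjusted p under 0.05 there were 959 of 33546 genes in SP against DN3 (2.86%), 380 higher (1.13%) and 579 lower (1.73%) in SP. The same count was 1583 for SP4 against DN3 (4.72%, with 1.64% higher and 3.08% lower), 746 for SP8 against DN3 (2.22%, with 1.22% higher and 1% lower) and 1723 for the difference of both effects (5.14%, with 1.68% higher and 3.46% lower in SP4). All 6 SP arrays lay above all 3 DN3 arrays for 276 genes (0.823%) and below them for 379 (1.13%), 1.95% in all. The median difference of all genes was -0.01, and 48.1% lay above 0. In simulated data with each gene's mean level and spread, the fit recovered 36.8% of genes changed by 1 log2 unit. It recovered 62.1% of those changed by 2 and 95.5% of those changed by 4, with 6 false calls. Simulated noise was independent and normal, without slide effects or outlying arrays, so recovery on the real arrays may differ. With no gene past the threshold, genes are described by their levels. Apart from 2010016I18Rik, the smallest adjusted p of a named gene was 0.75. In sorted cells, fewer cells with a transcript and less RNA per cell cannot be told apart.

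**Figure D1:**
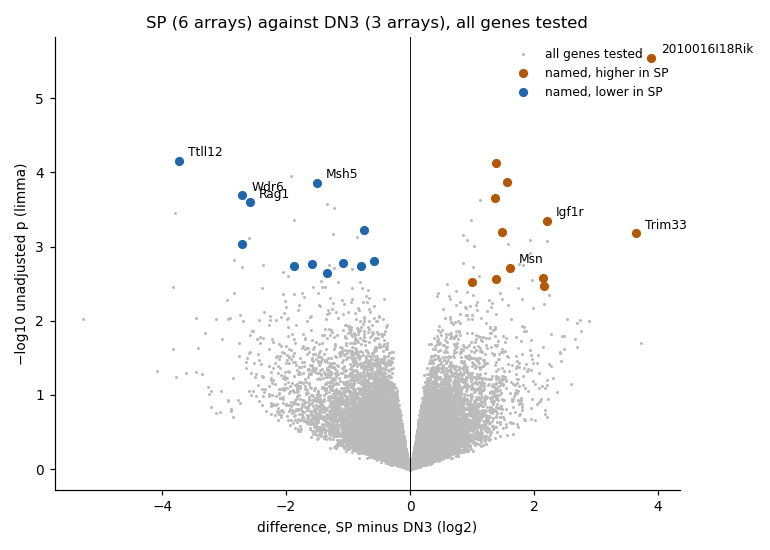
Difference between SP and DN3 arrays (x axis, log2, SP minus DN3) against the unadjusted p of limma on a −log10 scale (y axis) for all genes tested (grey). The 12 genes with the smallest p that lay higher in SP (orange) and the 12 that lay lower (blue), with groups that did not overlap, carry differences between 0.99 and 3.90 and between -3.73 and -0.58.

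Among the genes of V(D)J recombination, Rag1 and Dntt lay lower on every SP array than on any DN3 array. Rag1, the catalytic subunit of the RAG recombinase, had levels of -2.81, -4.07 and -4.48 in SP4 and -3.27, -3.35 and -2.21 in SP8, against -1.21, -1.02 and -0.10 in DN3. All 6 SP arrays lay below all 3 DN3 arrays. The difference was -2.59 ± 0.57 (adjusted p = 0.755). The other Rag1 probe had levels of -3.52, -3.31 and -4.06 in SP4 and -3.97, -3.44 and -2.60 in SP8, against -0.98, -1.07 and -0.60 in DN3, and a difference of -2.60 ± 0.90. Both probes separated the groups in the same way. The wt DP arrays, the stage between, lay at -2.17 ± 0.35 on the brighter Rag1 probe (SD, n = 3), between the means of SP4 (-3.79 ± 0.87) and DN3 (-0.77 ± 0.59). Without the outlying SP4 12 and SP8 15, the Rag1 difference was -2.60.

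Rag2, the partner subunit of RAG1, lay at -1.96, -2.54 and -4.44 in SP4 and -2.63, -2.79 and -3.40 in SP8, against -1.22, -0.10 and -1.97 in DN3. SP4 10 and DN3 9 met at nearly the same level, so the groups overlapped, and the difference was -1.86 ± 1.29. On its dimmer probe the Rag2 difference was -0.85 ± 0.77, and with slide as a fixed block the brighter probe gave -0.93. Dntt, the terminal transferase that adds bases at V(D)J joints, lay at 1.62, 1.48 and 1.52 in SP4 and 1.13, 1.47 and 1.19 in SP8, against 1.64, 1.99 and 1.84 in DN3. The Dntt groups did not overlap, but SP4 10 and DN3 7 were nearly level, and the difference was -0.42 ± 0.13. Dntt on 6 fetal liver B arrays had a median of 1.62, within the DN3 and SP range. Of the 12 genes of the recombination and end-joining list, 9 lay lower and 3 higher in SP, none past the threshold. Their median was -0.22 beside -0.01 for all genes, and 2 of the 12, Rag1 and Dntt, had SP arrays all below DN3, as 1.13% of all genes had. That median was -0.12 with the normexp background and -0.50 on the shared slide. Of the end-joining members, Xrcc5 and Xrcc6, the Ku subunits that bind broken ends, differed by -0.29 ± 0.25 and -0.33 ± 0.30, and Lig4, the ligase that closes the joint, by -0.89 ± 0.68.

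The receptor genes parted in direction. Trac, the constant gene of the alpha chain, lay at -1.18, -0.05 and -1.33 in SP4 and -1.16, -1.39 and -2.25 in SP8, against -3.73, -3.80 and -3.61 in DN3. Every SP array lay above every DN3 array by over 1 log2 unit, and the difference was 2.49 ± 1.01. The SE comes from a spread shared by all 24 arrays, among which the fetal liver B arrays ran between -7.50 and -2.62 for Trac. Without SP4 12 and SP8 15 the Trac difference was 2.77. The wt DP arrays averaged -3.43 ± 1.36 (SD, n = 3). The constant genes of the beta chain, rearranged at the DN3 stage, did not separate: Trbc1 had levels of 3.15, 2.48 and 3.04 in SP4 and 2.69, 2.10 and 2.34 in SP8, against 2.61, 3.48 and 3.23 in DN3, with a difference of -0.47 ± 0.33. Trbc2 had a difference of -0.68 ± 0.55. Both beta constant genes are near-identical copies, so their probes may share signal. Of the CD3 chains that carry the receptor's signal, Cd3e stood at 0.04 ± 0.11 in the difference and Cd3g at -0.69 ± 0.31. In the list of 7 receptor and CD3 genes, 5 lay lower and 2 higher in SP, with a median of -0.50.

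**Figure D2:**
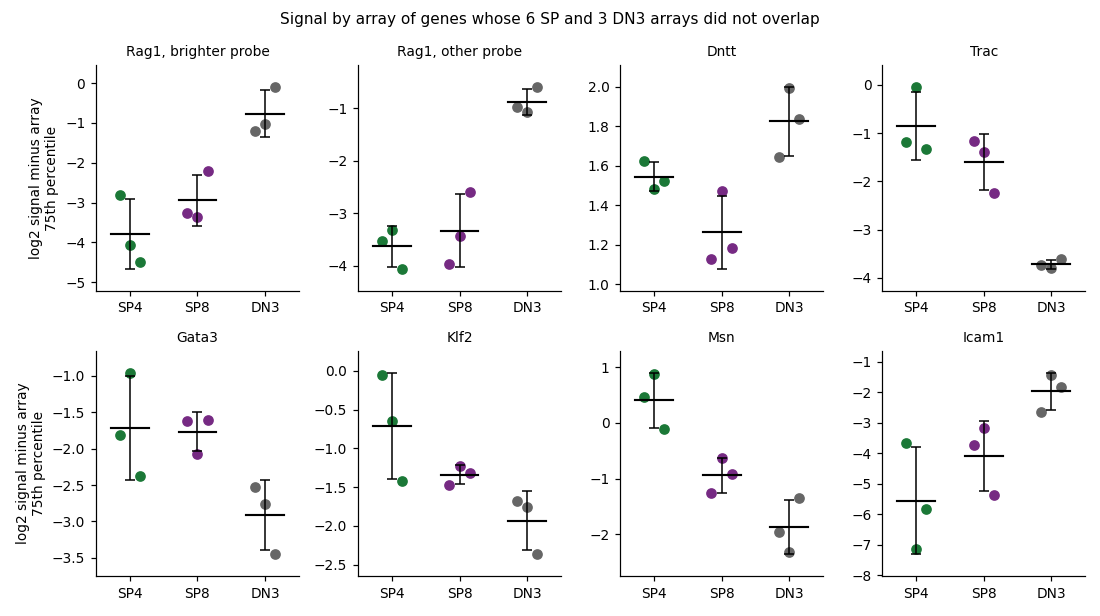
Log2 signal minus the array's 75th percentile (y axis) on each SP4, SP8 and DN3 array (points), with the mean (bar) and SD of each group of 3. Rag1 on both probes, Dntt and Icam1 lay lower in SP, and Trac, Gata3, Klf2 and Msn lay higher, with no overlap between 6 SP and 3 DN3 arrays.

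The genes that mark the DN3 label gave less. Il2ra, the CD25 chain used to define this stage, lay at -3.44, -2.70 and -3.37 in SP4 and -2.57, -3.30 and -3.83 in SP8, against -3.34, -2.57 and -2.72 in DN3, and the groups overlapped. Ptcra, the pre-TCR alpha chain, averaged 2.62 ± 0.18 in SP (SD, n = 6) and 2.57 ± 0.19 in DN3 (n = 3), a difference of 0.05 ± 0.19, and its median on fetal liver B arrays was 2.58, the same to within the spread. Notch1, the receptor that DN3 cells depend on, differed by -0.06 ± 0.18, and by -0.63 ± 0.46 on its other probe, with overlap. Notch3, a Notch receptor and target, differed by -0.58 ± 0.44. Of the 16 tested DN3 genes, 12 lay lower and 4 higher in SP, with a median of -0.30 beside -0.01 for all genes, and of -0.13 with the normexp background. Rag1 and Dntt were the only 2 of the 16 without overlap, beside 1.95% of all genes, and they belong to the recombination list too. In the Notch list, 13 of 19 lay lower and 6 higher, with a median of -0.07. With the normexp background the direction turned, with 11 of the 19 Notch genes higher and a median of 0.02. Members with the smallest p were the ligand Dll1 at -0.63 ± 0.36 and the ligand Jag2 at -0.78 ± 0.57.

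The Cd4 gene, which names the SP4 cells, set them apart by little. Cd4 averaged 3.57 ± 0.06 in SP4, 3.39 ± 0.06 in SP8 and 3.47 ± 0.08 in DN3 (SD, n = 3 each), and 3.63 in the median of fetal liver B arrays, so levels on this probe were alike in cells with and without CD4. On its other probe SP4 averaged 2.26 ± 0.30, SP8 2.35 ± 0.19 and DN3 2.31 ± 0.12 (SD, n = 3 each). There SP4 minus SP8 was -0.09 ± 0.32 and SP minus DN3 was -0.00 ± 0.28. Foxn1, the gene for which these mice are heterozygous and which thymic epithelium uses, averaged -0.06 ± 0.27 in SP (n = 6) and -0.20 ± 0.30 in DN3 (n = 3). Of the 32 label genes tested, 19 differed by less than 1 SE and 5 had groups without overlap (Rag1, Dntt, Trac, Gata3 and Klf2), beside 1.95% of all genes without overlap.

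Of the genes for SP maturation and exit from the thymus, 14 of 25 lay higher and 11 lower in SP, with a median of 0.09. Klf2, the factor that switches on exit receptors, lay at -0.05, -0.65 and -1.42 in SP4 and -1.47, -1.23 and -1.32 in SP8, against -1.68, -1.75 and -2.37 in DN3. It was the only 1 of the 25 members of this list without overlap, beside 1.95% of all genes. The Klf2 difference was 0.91 ± 0.60. S1pr1, the exit receptor that Klf2 controls, ran from -7.40 to -1.35 over SP arrays, a spread wider than its difference of 0.65 ± 1.12. SP4 10 and SP4 12 had the highest S1pr1 levels at -1.70 and -1.35. Ccr7, the receptor for the medulla, differed by -0.07 ± 0.30. Il7r, the interleukin 7 receptor chain, lay at -2.36, -3.86 and -3.39 in SP4 and -3.84, -3.39 and -3.31 in SP8, against -3.02, -4.48 and -6.83 in DN3. DN3 9 was low and DN3 7 was within the SP range, so Il7r overlapped. Cd52, a surface glycoprotein of lymphocytes, differed by 1.09 ± 0.59. Ccr9, a homing receptor of thymocytes, differed by -0.70 ± 0.35 and Ly6a, the Sca-1 surface protein, by -0.55 ± 0.28, with overlap for both. Ccr9 lay the other way on its other probe, at 0.35 ± 0.93. Cd69, an early activation receptor of cells under selection, differed by 0.55 ± 0.91, and Cd5, a brake on TCR signals, by -0.01 ± 0.25.

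Gata3, a zinc finger factor needed for the CD4 lineage, had the smallest p in the list of 26 T lineage factors. It lay at -1.81, -0.95 and -2.38 in SP4 and -1.62, -2.08 and -1.61 in SP8, against -2.52, -2.76 and -3.45 in DN3. All 6 SP arrays lay above DN3, SP4 and SP8 overlapped each other, and the difference was 1.17 ± 0.44. Without SP4 12 and SP8 15 it was 1.30 for Gata3, and 1.08 for Klf2. Zbtb7b, the CD4 lineage factor, differed by -0.01 ± 0.16, and by 0.44 ± 0.42 and 0.39 ± 0.45 on its other probes. Runx3, the CD8 lineage factor, differed by -0.13 ± 0.24, and by 0.22 ± 0.74 on its other probe. Bcl11b, the commitment factor, differed by -0.40 ± 0.47 on its brighter probe and by -2.44 ± 0.97 on the other, a disagreement between probes. Lef1, a partner of Tcf7, differed by -0.40 ± 0.73, Id3, an inhibitor of E proteins, by 0.11 ± 0.17, and Myb, a factor of progenitors, by -0.07 ± 0.51. In the list of T lineage factors 10 lay higher and 16 lower of 26, and the median was -0.07. Gata3 and Klf2 were its only members without overlap, 2 of 26, beside 1.95% of all genes.

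The 24 genes with the smallest p among those without overlap, 12 in each direction, included few known stage genes. 2010016I18Rik, a long noncoding RNA by the reference gene table, had levels of 0.98, -1.12 and 0.16 in SP4 and -0.49, -1.34 and -1.51 in SP8, against -4.69, -4.73 and -3.93 in DN3. All SP arrays exceeded DN3 by over 2 log2 units. The difference was 3.90 ± 0.58 (adjusted p = 0.0958). The wt DP arrays averaged -3.69 ± 0.74 (SD, n = 3) and the 6 fetal liver B arrays lay between -4.93 and -2.68, so among these wt groups SP cells stood above the rest. Msn, moesin, a linker of actin to the membrane, lay at 0.47, 0.87 and -0.11 in SP4 and -1.26, -0.63 and -0.92 in SP8, against -1.96, -2.32 and -1.36 in DN3. SP4 arrays were higher than SP8 arrays, which lay just above DN3, and the difference was 1.61 ± 0.45.

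Igf1r, the receptor for insulin-like growth factor 1, lay at -2.11, -2.40 and -4.09 in SP4 and -3.47, -3.67 and -2.91 in SP8, against -4.49, -5.10 and -6.34 in DN3, where 2 of 3 arrays were well above background, with a difference of 2.20 ± 0.51. Trim33, a ubiquitin ligase, differed by 3.65 ± 0.89, with only 1 of 3 DN3 arrays well above background. Under the normexp background Trim33 differed by 1.20 and Igf1r by 0.95. Of 67 named genes that differed by at least 1 SE, 24 were over 1.5 times smaller under normexp and 0 were that much larger. Zdhhc15, a protein palmitoyltransferase, differed by 1.56 ± 0.32 and Tmem80 by 0.99 ± 0.29. Tmem80 had another probe that went the other way, at -1.44 ± 0.81. Ppfia2 and Olfr1253, an olfactory receptor gene, were not well above background on any DN3 array. On the processed signal SP lay at least 2.79-fold and 3.71-fold higher. These bounds set the mean of SP against, on each DN3 array, the higher of the probe's own signal and the lowest signal well above background. For Gm17751 the same calculation gave a bound of 1.60-fold. Only 4 of 6 SP arrays, and 1 of 3 SP8 arrays, were well above background for it, so this bound is not firm. Bounds here and below hold for the processed signal only. With the normexp background the differences were smaller than these bounds, at 0.66 for Ppfia2, 0.76 for Olfr1253 and 0.41 for Gm17751. The rest of the 12 were 5330434G04Rik (1.39 ± 0.27), Psg25 (1.49 ± 0.36) and 2310057J18Rik, whose groups separated as well.

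Among the 12 lower genes, Ttll12 was not well above background on any of the 6 SP arrays, against all 3 DN3 arrays at -4.91, -2.90 and -1.81. On the processed signal Ttll12 lay at least 4.00-fold lower in SP. Its normexp difference was -1.17, smaller than that bound. Msh5, a meiotic MutS protein, lay at -1.82, -2.36 and -1.29 in SP4 and -0.67, -1.33 and -1.39 in SP8, against -0.47, 0.04 and 0.53 in DN3, with no overlap and a difference of -1.51 ± 0.31. Its other probe overlapped, at -0.35 ± 0.33. Wdr6 differed by -2.71 ± 0.58 and Nampt, the rate-limiting enzyme of NAD salvage, by -0.80 ± 0.22. Asf1b, a histone chaperone of dividing cells, had a difference of -1.34 ± 0.38. Sik2 differed by -1.87 ± 0.51 on its brighter probe and by 1.23 ± 0.83 on the other, where no DN3 array was well above background. The others were Eps8l1 (-2.72 ± 0.69), F2rl2 (-1.59 ± 0.43), Cstf3 (-1.08 ± 0.29), 2810408A11Rik (-0.75 ± 0.18) and Avpi1 (-0.58 ± 0.16). For 2810408A11Rik the other probe was level, at 0.08 ± 0.19.

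Icam1, an adhesion molecule, lay at -3.67, -7.15 and -5.84 in SP4 and -3.74, -3.17 and -5.37 in SP8, against -2.65, -1.44 and -1.84 in DN3. No array overlapped, and the difference was -2.84 ± 0.87, with 3 of 6 SP arrays well above background. In the list of chemokine receptors and adhesion, 9 lay higher and 10 lower of 19, with a median of -0.00. Cd44, a hyaluronan receptor, differed by 0.22 ± 0.15, and by -0.18 to 0.76 on its 3 other probes. The lists of TCR-proximal signalling (11 higher, 9 lower of 20) and of TCR-induced selection genes (13 higher, 7 lower of 20) had medians of 0.05 and 0.07. In the first, Cd2, an adhesion and costimulation receptor, differed by 0.83 ± 0.42 and by 1.31 ± 0.47 on its other probe. Ptprc, the CD45 phosphatase, differed by 0.31 ± 0.21. Themis, needed for positive selection, ran from -5.28 to -0.03 over SP arrays, with a difference of -1.43 ± 0.69, and of 0.09 ± 0.97 on its other probe. In the second, Fos, an immediate early factor, was well above background on 4 of 6 SP arrays, with a difference of -2.01 ± 0.99. Ier2, another immediate early gene, differed by -0.67 ± 0.32, and the nuclear receptor Nr4a2 by 0.69 ± 0.50. The other Nr4a2 probe lay the other way, at -0.49 ± 0.52.

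The Gimap GTPases, which serve lymphocyte survival, had 5 of 8 higher, with a median of 0.09. Gimap4 differed by 0.56 ± 0.42 on its brightest probe and by 1.72 ± 0.54 and 0.58 ± 0.34 on the other 2. Gimap3 differed by 0.27 ± 0.15. Of the class I MHC presentation genes, 5 lay higher and 10 lower of 15, with a median of -0.11, and Psmb8, a subunit of the immunoproteasome, differed by -1.04 ± 0.56. Tap2, a peptide transporter chain, differed by -0.61 ± 0.39, and the heavy chain H2-D1 by -0.52 ± 0.37. Of the Bcl2 family, 3 lay higher and 11 lower of 14, with a median of -0.14, and Bcl2 itself differed by -0.00 ± 0.37. Bcl2l2, a survival member, was well above background on 1 of 6 SP and 2 of 3 DN3 arrays, and its difference of -0.80 ± 0.42 became -0.08 under normexp. Bax, a death effector, differed by 0.27 ± 0.17. Of the cytokine receptor list, 11 lay higher and 9 lower of 20 (median 0.06), and Il6ra, the interleukin 6 receptor, differed by 1.10 ± 0.41. Of the interferon list, 7 lay higher and 10 lower of 17 (median -0.06), with Igtp, an interferon-induced GTPase, without overlap at -1.03 ± 0.81. Ifi27, an interferon-induced gene, lay at -0.93, -1.98 and -1.71 in SP4 and -0.24, -1.72 and -0.50 in SP8, against 0.28, 1.32 and -0.69 in DN3. DN3 9 was within the SP8 range for Ifi27, and the difference was -1.48 ± 0.63. Of the coreceptor and lineage list, 11 lay higher and 9 lower of 20, with a median of 0.01.

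The replication and mitosis list had 8 higher and 17 lower of 25, with a median of -0.11. Most members lay near 0, such as Cdk1, the mitotic kinase, at 0.12 ± 0.19, and Mki67, a marker of cycling cells, at 0.07 ± 0.31. Pcna, the sliding clamp, differed by 0.81 ± 0.53 and Birc5, survivin, by -0.24 ± 0.15. The other Birc5 probes gave -0.67 ± 0.58 and -1.24 ± 1.12. Mcm2, a subunit of the replicative helicase, had the smallest p of the list, at -7.13, -7.42 and -7.85 in SP4 and -4.31, -3.81 and -3.96 in SP8, against -4.03, -2.73 and -2.37 in DN3. No SP4 array was well above background for Mcm2, which on the processed signal was at least 4.83-fold lower in SP4 than in DN3. SP8 and DN3 arrays overlapped. Its helicase partners differed less, with Mcm4 at -0.08 ± 0.19 and Mcm5 at -0.06 ± 0.31.

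**Figure D3:**
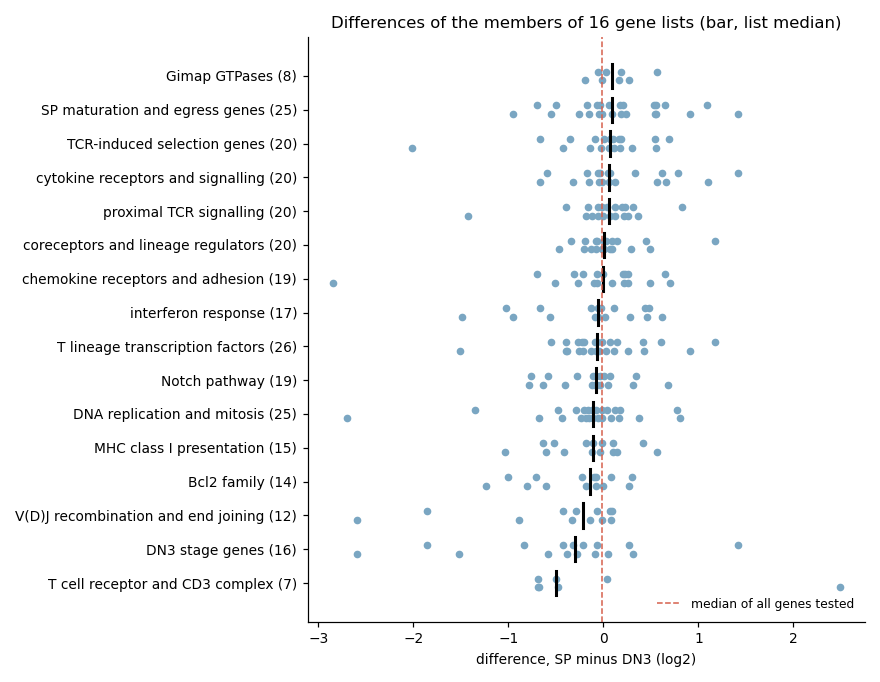
Difference between SP and DN3 arrays (x axis, log2) for each tested member (points) of 16 gene lists, with the number of members in brackets, ordered by list median (bar). List medians ran between -0.50 and 0.09, beside -0.01 for all genes (dashed line).

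The SP4 and SP8 effects share the DN3 arrays, so they are given side by side. No gene passed in the difference of both effects, where the smallest adjusted p was 0.372. Cd8a, the CD8 alpha chain, showed its probes at odds. The brighter probe lay at -0.53, -1.25 and -1.06 in SP4 and -0.45, -1.27 and -1.15 in SP8, against -0.99, -1.62 and -1.73 in DN3, with all groups overlapping in Cd8a. The other probe, singled out after its values were seen, lay at -3.59, -3.79 and -5.68 in SP4 and -0.46, -0.70 and -0.13 in SP8, against -3.14, -4.37 and -2.73 in DN3. The 3 SP8 arrays lay above all SP4 and DN3 arrays on it, as for 1.28% of all probes. The SP8 effect on this probe was 2.99 ± 0.90, the SP4 effect -0.94 ± 0.90, and the difference of the effects -3.93 ± 0.90 (adjusted p = 0.502 over all probes). Cd8b1, the CD8 beta chain, lay lower in SP8 than in SP4, with -2.47, -2.42 and -1.52 in SP4 and -2.81, -3.93 and -3.94 in SP8, against -3.39, -2.52 and -1.61 in DN3, and a difference of effects of 1.43 ± 0.47 (adjusted p = 0.785).

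Tcf7, the T cell factor 1 of commitment and memory, lay at 1.68, -0.55 and 1.25 in SP4 and -0.92, -3.33 and -2.90 in SP8, against -0.20, 1.27 and 1.08 in DN3. SP8 arrays lay below all others, and SP4 and DN3 overlapped. The difference of the effects was 3.18 ± 1.05 (adjusted p = 0.792), and 2.94 ± 1.08 on the other probe. Satb1, a chromatin organiser of thymocytes, lay at 2.34, 1.07 and 0.81 in SP4 and 0.22, -0.49 and -6.48 in SP8, against -0.20, 0.08 and 0.51 in DN3. SP8 15 was low by itself, and without SP4 12 and SP8 15 the Satb1 difference between SP and DN3 was 0.66 beside -0.55 with them. Msn had a difference of effects of 1.35 ± 0.51, Il6ra of 1.27 ± 0.48 and Psmb8 of 1.58 ± 0.64, each higher in SP4, and Themis of -1.73 ± 0.80, lower in SP4, but of 0.28 ± 1.12 on the other Themis probe. Mcm2, not well above background on any SP4 array, was on the processed signal at least 2.45-fold lower in SP4 than in SP8.

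**Figure D4:**
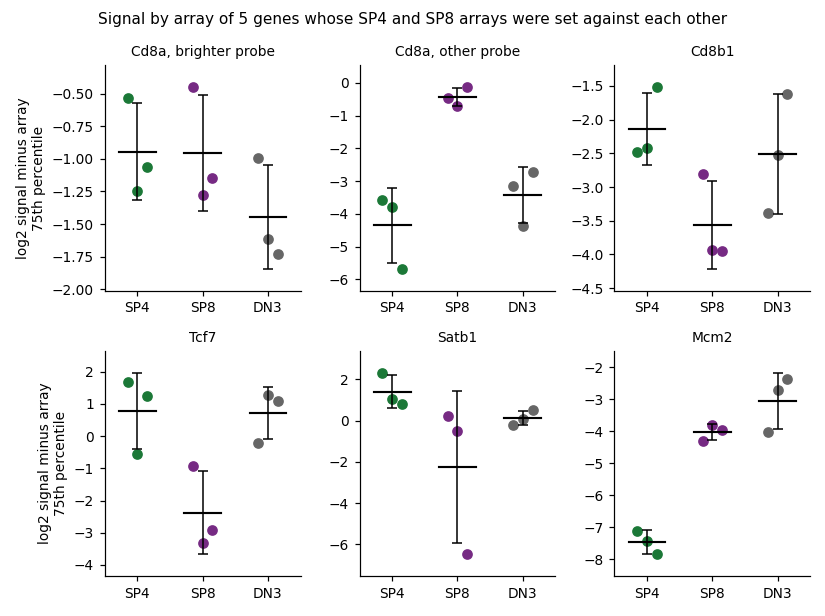
Log2 signal minus the array's 75th percentile (y axis) on each SP4, SP8 and DN3 array (points), with the mean (bar) and SD of each group of 3. The other Cd8a probe set the 3 SP8 arrays, between -0.70 and -0.13, above SP4 and DN3, while the brighter Cd8a probe did not.

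The comparison was repeated on the slide that held SP4 10 and 12, SP8 13 to 15 and DN3 8 and 9. No gene passed there either, and 1748 of 33542 had an unadjusted p under 0.05 (5.21%). With 5 SP arrays against 2, all SP arrays lay above DN3 for 4.76% of genes and below for 4.53%. All 24 genes with the smallest p kept groups without overlap on this slide, which follows from their choice. Of 87 named genes, 81 had the same sign, and the 6 that did not had differences within 0.07 of 0 in both fits. Rag1 differed by -2.73 ± 0.59 there, Trac by 2.28 ± 0.33, Gata3 by 1.17 ± 0.30, Klf2 by 1.02 ± 0.41 and 2010016I18Rik by 4.06 ± 0.42. Il7r differed by 2.46 ± 0.67 on the shared slide and had no overlap there, since DN3 7 was left out. Other named genes also overlapped over all 9 arrays but not on this slide. Those lower in SP there included Cd3g (-1.28 ± 0.36), Notch3 (-0.69 ± 0.17), Trbc1 (-0.62 ± 0.22), Ccr9 (-0.81 ± 0.33), Bcl2l2 (-1.20 ± 0.65) and Hrk (-1.51 ± 0.77). Those higher included Cd2 (1.20 ± 0.25), Cd52 (1.29 ± 0.54), Cd8a on its brighter probe (0.80 ± 0.30), Gimap3 (0.27 ± 0.22) and Bax (0.27 ± 0.18). With slide as a fixed block Rag1 differed by -2.24, Trac by 3.33 and Gata3 by 1.36. Among named genes of at least 1 SE, 3 moved by over 1.5 times in that fit, with Rag2 at -0.93 and Ptprc at 0.20, both smaller, and Cd8a at 0.84, larger.

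**Figure D5:**
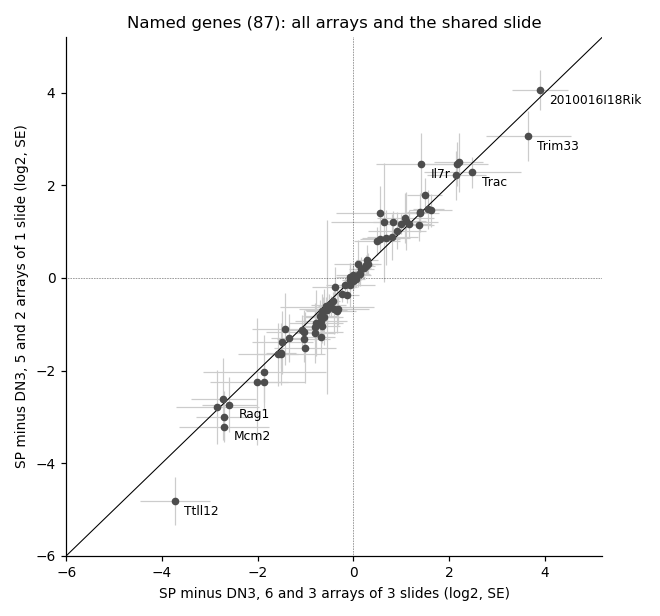
SP minus DN3 difference of the 87 named genes over 6 and 3 arrays (x axis, log2, SE) against the same over the 5 and 2 arrays of the shared slide (y axis, log2, SE), which are part of the first. Points lie along the line of equality, with 2010016I18Rik at 3.90 and 4.06 and Rag1 at -2.59 and -2.73.

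Markers of other cells gave signal in both groups. All 12 myeloid and dendritic markers were well above background on all 9 arrays, as were 87.5% of all genes, and the sum of their linear levels ran between 276 and 365 on SP arrays and between 277 and 336 on DN3 arrays. The summed B cell markers (10 genes) ran between 42.9 and 52.8 on SP and between 42.0 and 46.3 on DN3 arrays, and the summed thymic epithelial markers (9 genes) between 21.1 and 25.4 on SP and between 22.1 and 23.6 on DN3 arrays. The erythroid (7 genes), NK and gamma-delta (9 genes) and stromal (10 genes) sums overlapped between groups as well. Single markers without overlap included Lyz2, lysozyme of myeloid cells, at -0.12, 0.04 and 0.74 in SP4 and -0.19, -0.13 and 0.68 in SP8, against -0.37, -0.47 and -0.82 in DN3. Col1a1, a collagen of stroma, differed by 0.81 ± 0.39, and Kdr, an endothelial receptor, by -0.13 ± 0.14. Their part in the differences above was not tested.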

How the data were processed

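Per the file headers, the deposited spot intensities came from Feature Extraction 10.7.3.1 (1-colour Agilent arrays): a processed signal, background-subtracted by that program, and mean and background signals. The authors' deposited series matrix holds log2 values with a median of 7.93 on each array, used as an alternative; the sources name no program for it. Control spots (3671 of 62976) were left out, 248 non-uniform values set to missing, and spots of a probe averaged to 55681 probes. Names came from accessions for 26864 probes, symbols for 3751, synonyms for 623 and descriptions for 3, through a reference gene table; 24440 kept the file's name, which can be old. The log2 processed signal was scaled to the array's 75th percentile. Genes were kept where 1 of their probes or more passed the well-above-background flag on all arrays of any group. The brightest probe stood for it. Differences were fitted with limma 3.58.1 in R 4.3.3 (lmFit, eBayes), with the 24 arrays in 8 groups and Benjamini-Hochberg adjustment over all genes; the number of arrays limits the precision. The fit was tested on simulated data of 33545 genes.

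The members and gene lists were chosen with earlier results of these data known. Named were up to 12 genes each way with the smallest p, groups that did not overlap and a symbol, up to 3 genes of smallest p in each of 16 lists, and set label genes. Marker lists covered other cells. Xrcc5, Xrcc6, Lig4, Cdk1, Mki67, Mcm4, Mcm5 and single markers were named after their values were seen. Of 317 listed genes, 307 were tested; Hes1, Trdc, Id2, Jag1, Maml1, Bcl2a1a, Aurkb, Mx1, Ctsl and Hbb-b1 were not. Alternatives were median scaling, quantile normalization, normexp with an offset of 50, the series matrix, other probe rules and filters, slide as a block, array weights, fewer arrays and each replicate left out.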

Additional observations from a re-analysis of the deposited data

How the results depend on the processing

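The count of genes between SP and DN3 past the threshold was 0, and became 1 with quantile normalization, the normexp background, the series matrix values, slide as a fixed block or array weights, and 2 with the mean of all probes. That gene was 2010016I18Rik, with a difference of 2.68 to 4.24 in these fits, and the second was a probe named only by an Ensembl transcript. Leaving out each replicate gave 0 to 1, the 1 without SP4 11. For SP4 against DN3 the count became 2 with quantile normalization or the series matrix values, and 1 with normexp, slide as a fixed block or array weights. Leaving out each replicate gave 0 to 1 there, the 1 without SP4 10. For SP8 against DN3 no alternative gave a call. For the difference of the SP4 and SP8 effects the count became 1 without tg B 23, IgM-positive 21 and tg DP 4, and 0 to 2 over the replicates left out, the 2 without SP4 10. On the shared slide the count ran from 0 to 10 over the replicates left out. The 10, all lower in SP, came without DN3 9, which leaves DN3 8 alone, and 8 of them are annotated to the Y chromosome. Testing every probe on its own, and leaving out SP4 12 and SP8 15, both chosen after seeing the data, gave 0 in each comparison. Of 87 named genes, 67 differed by at least 1 SE, and 66 of those kept their sign under 23 alternatives each. Tmem80 turned to -0.22 with the mean of all probes. Under normexp, 24 of the 67 became over 1.5 times smaller. Slide as a random block had a correlation of 0.05. No paired analysis was possible because the groups share no replicate number. Dim probes limit what can be seen: the median SD over the 9 arrays was 0.92 in the dimmest 25% of genes and 0.19 in the brightest 25%.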
